A study of Caenorhabditis elegans with 165 samples.

Results

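Larvae of the Caenorhabditis elegans strain YPT41, in which the X chromosome is joined to chromosome II (the X;II fusion), were compared with the wild-type laboratory strain N2 by RNA-seq of whole worms. The comparison takes replicates 2, 3 and 4 of each strain, 6 of the 12 RNA-seq libraries and of the 165 samples in the series. Replicate 1 of each strain stays out because it carries adult and germline transcripts. Replicates 2 to 4 of strain 15eh1, in which X is joined to chromosome V (the X;V fusion), entered the same fit so that the 3 strains shared 1 estimate of the spread. No treatment is named for these libraries, and which ends are joined is not given in the labels. Titles place the larvae between L1 and L3, whereas the overall design names only L3. Nothing in the labels says whether the replicates came from separate cultures, so p-values measure the spread between these libraries, which may be technical.

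In hermaphrodites of this species the dosage compensation complex, a condensin-based complex, lowers expression from both X chromosomes, and a fusion places autosomal genes beside X. Genes at the left end of II are lower in YPT41, and the question here was which functions change elsewhere in the genome. Some of the functions below belong to the epidermis, the tissue that secretes the cuticle. It answers infection and wounding by secreting small antimicrobial peptides of the caenacin (cnc) and neuropeptide-like (nlp) families. Worms answer loss of water by raising osmolytes such as glycerol, which is made with glycerol-3-phosphate dehydrogenase. Proton-coupled transporters carry myo-inositol, another osmolyte, into cells. In whole larvae, a smaller number of cells of a type and less RNA per cell cannot be told apart.

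The YPT41 libraries held 16684543, 8237095 and 20573267 gene counts in replicates 2, 3 and 4, and the N2 libraries held 12349109, 16757544 and 31234047. A floor of 3 counts was worth 0.364 CPM at most, in YPT41 replicate 3. YPT41 libraries varied more than those of the other strains, with a biological coefficient of variation of 0.432 among themselves, against 0.214 in 15eh1 and 0.265 in N2. The first principal component explained 41.3% of variance and placed YPT41 replicates 3 and 4 at 46.1 and 102, apart from YPT41 replicate 2 at -6.68 and from the 6 15eh1 and N2 libraries between -31.5 and -15.5. YPT41 replicate 4 also had the lowest scaling factor, 0.800. CPM values below are counts relative to the scaled library size.

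Of 13299 genes tested, 134 differed between YPT41 and N2 (1.01%), with 80 higher and 54 lower in YPT41 (0.406%). The left end of II, taken as the 100 tested genes nearest that end, held 17 of the lower genes and none of the higher ones. Away from it, 117 of 13199 genes differed, which is 0.886%. They divide into 80 higher (0.606%) and 37 lower (0.28%) in YPT41. The median log2 fold change was 1.89 among the higher genes and -2.45 among the lower ones. All 117 had non-overlapping libraries, as did 10.2% (above) and 9.8% (below) of all genes away from the left end. Absence of overlap in a called gene, given below, thus adds no support to its call. Only 46 of the higher and 23 of the lower genes carry a name beyond a sequence name.

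**Figure D1:**
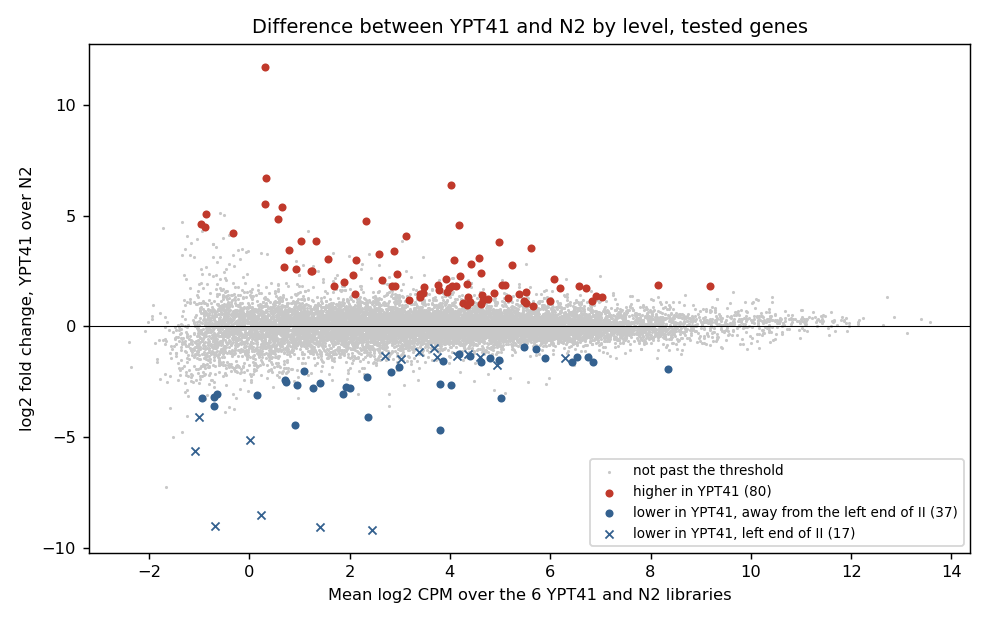
Mean log2 CPM over the 6 YPT41 and N2 libraries (horizontal) against the log2 fold change of YPT41 over N2 (vertical), 1 point per tested gene. Red points are the 80 genes higher in YPT41, blue dots the 37 lower genes away from the left end of II, and blue crosses the 17 lower genes at that end. The point above 11 is suex-1, for which the N2 libraries held no counts, so its height depends on the prior count.

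How many genes passed depended strongly on which libraries were in the fit. With the 6 YPT41 and N2 libraries alone, 15 genes were higher and 10 lower away from the left end (0.194% of those tested), and all of the 30 genes called in that fit were among the 134. Without 1 N2 library the count away from the left end was 13, 25 or 19 (without N2 replicate 2, 3 or 4). It was 1258, 71 and 102 without YPT41 replicate 2, 3 and 4. Away from the left end, 12 genes passed in all 6 of these fits. The higher ones were cnc-2, cnc-4, hmit-1.2, srlf-34 and C04A11.5. The lower ones were srw-85, herc-1, sqt-1, dod-24, C32H11.4, K02E2.8 and Y50D4B.4.

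**Figure D2:**
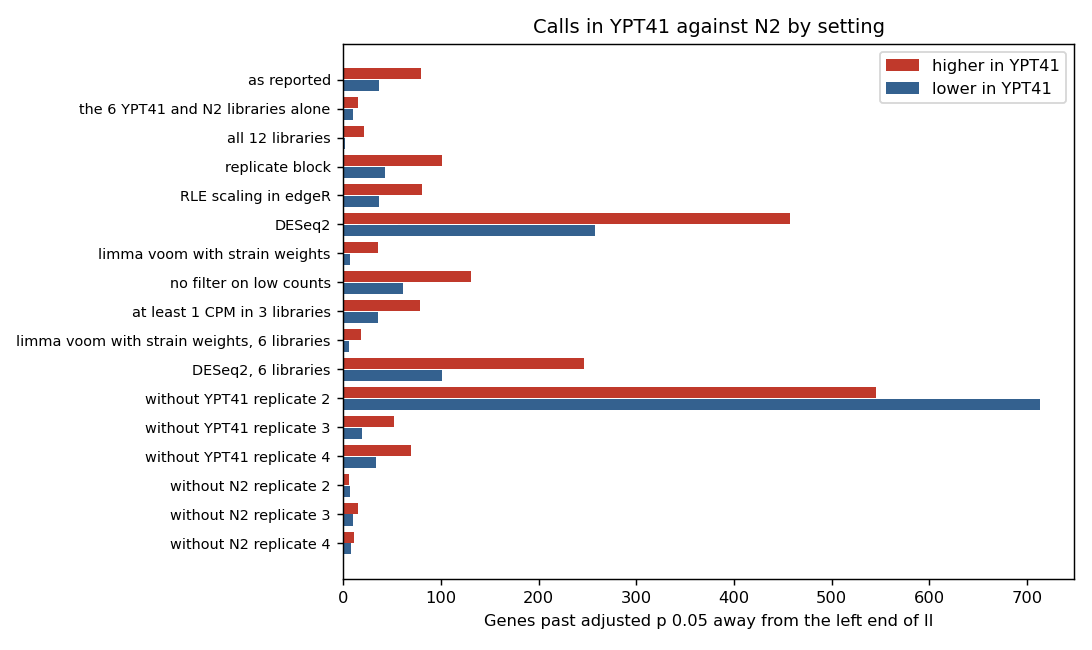
Number of genes past the adjusted p threshold of 0.05 away from the left end of II (horizontal), under each setting (rows), higher in YPT41 in red and lower in blue. The 80 higher and 37 lower genes of the top row become 15 and 10 with the 6 libraries alone, and 545 and 713 without YPT41 replicate 2.

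Some genes for epidermal antimicrobial peptides were higher in YPT41. Of 22 such genes, 18 passed the filter on low counts, and 5 of these rose (27.8%, against 0.606% of all genes away from the left end of II): cnc-2, cnc-4, cnc-6, nlp-30 and nlp-34. Over the 18 the median was 1.82 in log2 fold change, against 0.02 for all genes away from the left end. All 18 had a positive fold change, as did 6832 of the 13199 genes away from the left end. In 13 of the 18 every YPT41 library lay above every N2 library, as in 10.2% of those genes. Members with few counts elsewhere, such as cnc-2 (14 counts in N2 in all) and cnc-6 (5), passed the filter through YPT41, where they are high. For such members a rise was partly set by the filter. The remaining 4 of the 22, cnc-1, cnc-5, cnc-7 and cnc-9, had too few counts to be tested.

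The caenacin gene cnc-2 was counted at 6.22, 6.10 and 15.5 CPM in YPT41 replicates 2, 3 and 4, against 0.151, 0.115 and 0.326 CPM in N2. The nearby cnc-4 stood at 38.9, 41.1 and 64.7 CPM in YPT41, against 5.44, 7.29 and 5.47 CPM in N2. The 2 strains did not overlap for either gene, and the YPT41 mean was 46.9 times the N2 mean for cnc-2 and 7.96 times for cnc-4. In edgeR's quasi-likelihood test with Benjamini-Hochberg adjustment, the log2 rise of cnc-2 was 5.39 ± 0.62 (SE, adjusted p = 0.00494). In the same edgeR test that of cnc-4 was 2.99 ± 0.31 (SE, adjusted p = 0.00246). A further caenacin gene, cnc-6 on chromosome III, stood at 9.16, 3.96 and 15.3 CPM in YPT41, against 0.0756, 0.172 and 0.0326 CPM in N2, which rests on 5 N2 counts in all. It rose in edgeR's test by 6.71 ± 0.95 (SE, adjusted p = 0.0129), and the call was lost without any 1 of the 3 N2 libraries, with adjusted p up to 0.111.

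The peptide gene nlp-34, which lies in the nlp-29 cluster, reached 76.3, 70.7 and 250.1 CPM in YPT41, against 6.88, 8.38 and 12.5 CPM in N2. YPT41 replicate 4 was far above the other 2 YPT41 libraries, all of which lay above N2. nlp-30, from the same cluster, stood at 33.5, 37.5 and 48.9 CPM in YPT41, against 7.18, 10.2 and 14.5 CPM in N2. The log2 rise in edgeR's test was 3.83 ± 0.51 for nlp-34 (SE, adjusted p = 0.00962) and 1.90 ± 0.30 for nlp-30 (SE, adjusted p = 0.0227). Both calls were lost without N2 replicate 2 or N2 replicate 3.

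Members of the list that did not pass the test are given by their levels. nlp-29, the member best known from fungal infection, stood at 132, 93.6 and 316 CPM in YPT41, against 27.8, 52.4 and 43.05 CPM in N2, with no overlap (edgeR adjusted p = 0.0545). nlp-31 stood at 66.9, 94.8 and 171 CPM in YPT41, against 26.8, 34.5 and 46.7 CPM in N2 (edgeR adjusted p = 0.0866). For nlp-28, 8.63, 9.27 and 44.9 CPM in YPT41 lay above 3.17, 3.84 and 4.66 CPM in N2 (edgeR adjusted p = 0.0848). These 3 genes had no overlap between the strains, and YPT41 replicate 4 was the highest library in each.

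Of the other members, cnc-11 reached 2.00, 5.08 and 37.8 CPM in YPT41, against 0.907, 1.38 and 0.0977 CPM in N2. nlp-32 stood at 1.35, 1.36 and 6.33 CPM in YPT41 and at 0.302, 0.172 and 0.0651 CPM in N2. For cnc-10, levels were 34.9, 57.1 and 82.5 CPM in YPT41 and 24.6, 27.02 and 17.8 CPM in N2. None of these 3 passed, and their libraries did not overlap either. The 2 remaining members without overlap had smaller log2 fold changes, 0.89 for nlp-33 and 0.82 for cnc-3. The 5 with overlapping libraries were nlp-24 (0.42), nlp-25 (0.83), nlp-26 (1.29), nlp-27 (1.74) and cnc-8 (0.88). nlp-24 was high in 1 library only, at 246, 217 and 875 CPM in YPT41, against 318, 337 and 348 CPM in N2.

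**Figure D3:**
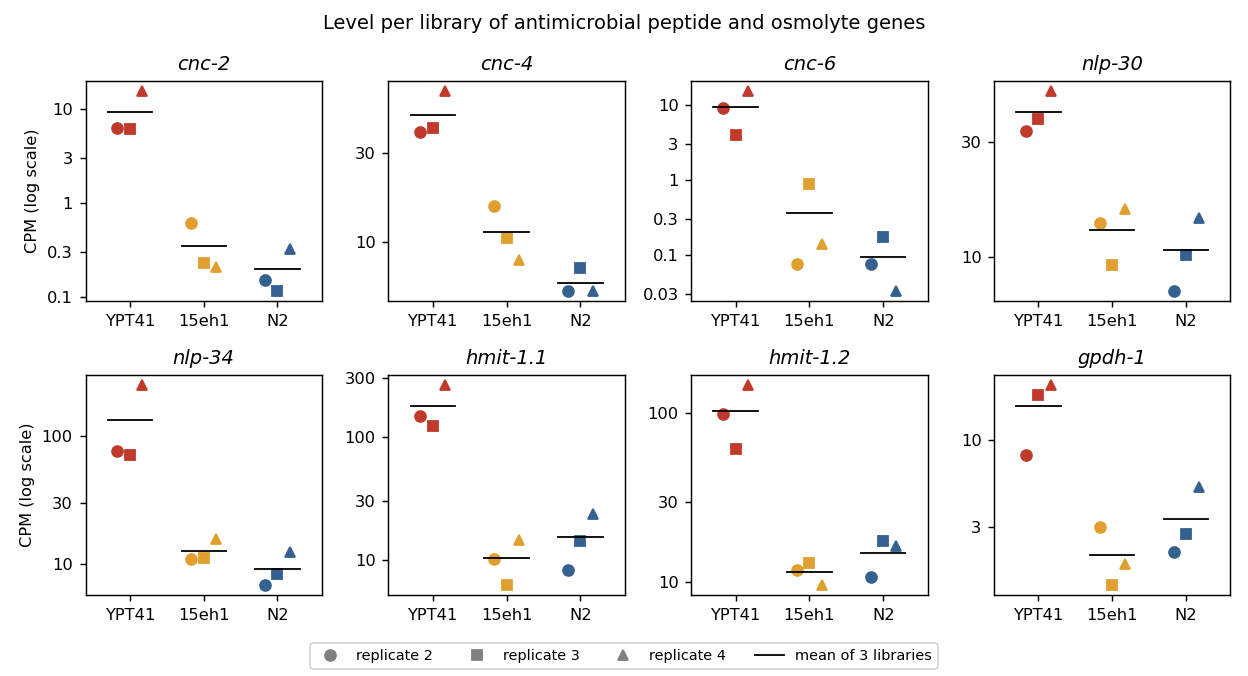
CPM on a log scale (vertical) in each library of YPT41, 15eh1 and N2 (horizontal) for 5 antimicrobial peptide genes and 3 osmolyte genes, with a marker shape for each replicate and a line at the mean of 3 libraries. In each of the 8 panels the 3 YPT41 libraries lie above all 15eh1 and N2 libraries.

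Caenacin and nlp genes are short and similar in sequence, so the counting may have split or lost reads between copies. Strand use in the counting is not given, and antisense or overlapping transcripts cannot be told apart. The median over the 18 genes of the log2 difference from the N2 mean was 1.19, 1.28 and 2.65 in YPT41 replicates 2, 3 and 4, and 0.20 to 0.39 in the 15eh1 libraries. Of 22 tested regulators of these peptides, 1 rose (4.55%, against 0.606% of all genes away from the left end): dcar-1, which encodes a receptor that acts upstream of nlp-29 in the epidermis. Its levels were 52.97, 66.7 and 81.7 CPM in YPT41, against 26.7, 35.5 and 34.1 CPM in N2 (log2 fold change 1.06 ± 0.21, SE, edgeR adjusted p = 0.0478), and it passed in only 1 of the 6 fits without 1 library. The kinase genes nsy-1, sek-1 and pmk-1 of the p38 cascade had log2 fold changes of -0.09, 0.07 and 0.08. snf-12, a transporter gene needed for the nlp-29 response, stood at 10.8, 19.4 and 17.6 CPM in YPT41 and 10.4, 9.52 and 8.17 CPM in N2 (edgeR adjusted p = 0.165).

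Genes for myo-inositol transport formed the second group. hmit-1.1 and hmit-1.2, neighbours on chromosome V that encode proton-coupled myo-inositol transporters, both rose. They were the only ones called of 19 tested osmolyte and water balance genes (10.5%, against 0.606% of all genes away from the left end), whose median log2 fold change was 0.45. hmit-1.1 stood at 149, 124 and 265 CPM in YPT41, against 8.31, 14.3 and 23.7 CPM in N2. hmit-1.2 stood at 99.1, 61.8 and 148 CPM in YPT41, against 10.7, 17.4 and 16.4 CPM in N2. Neither overlapped between strains, and the ratios of means were 11.6 and 6.93. edgeR's test gave a log2 rise of 3.53 ± 0.47 for hmit-1.1 (SE, adjusted p = 0.00962) and of 2.79 ± 0.33 for hmit-1.2 (SE, adjusted p = 0.00596). The call for hmit-1.1 was lost without N2 replicate 2 or N2 replicate 3, with adjusted p up to 0.0686, and that for hmit-1.2 held in all 6 fits. Because the 2 genes are adjacent and similar, reads may be shared between them.

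gpdh-1, the glycerol-3-phosphate dehydrogenase gene induced by hypertonicity, stood at 8.05, 18.5 and 21.4 CPM in YPT41, against 2.12, 2.70 and 5.18 CPM in N2. Its libraries did not overlap, and it missed the threshold against N2 (log2 fold change 2.24 ± 0.47, SE, edgeR adjusted p = 0.0571). Against 15eh1, at 2.97, 1.33 and 1.79 CPM, it passed (log2 fold change 3.00, edgeR adjusted p = 0.0293). The paralog gpdh-2 had 194, 393 and 182 CPM in YPT41 and 128, 155 and 134 CPM in N2, without overlap (edgeR adjusted p = 0.191).

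None of the other osmolyte and water balance genes passed the test. Among aquaporin genes, which encode water and glycerol channels, aqp-8 stood at 80.03, 106 and 191 CPM in YPT41 and 60.8, 46.3 and 58.6 CPM in N2 (edgeR adjusted p = 0.104). aqp-4 lay below, at 12.8, 11.8 and 22.2 CPM in YPT41, against 34.8, 26.2 and 39.2 CPM in N2 (edgeR adjusted p = 0.0828). aqp-5 also lay below, at 0.117, 0.339 and 0.182 CPM in YPT41 and 0.605, 0.918 and 0.945 CPM in N2, levels near the floor. The log2 fold changes of aqp-1, aqp-2, aqp-6, aqp-7, aqp-10, aqp-11 and aqp-12 lay between -0.13 and 0.49. hmit-1.3, the family member on chromosome III, was at 0.50. The trehalose genes tps-1, tps-2 and gob-1 were at 0.14, 0.45 and 0.40, and lea-1, which encodes a late embryogenesis abundant protein, at -0.32. None of 11 tested regulators of the osmotic response was called, and their median was 0.08.

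**Figure D4:**
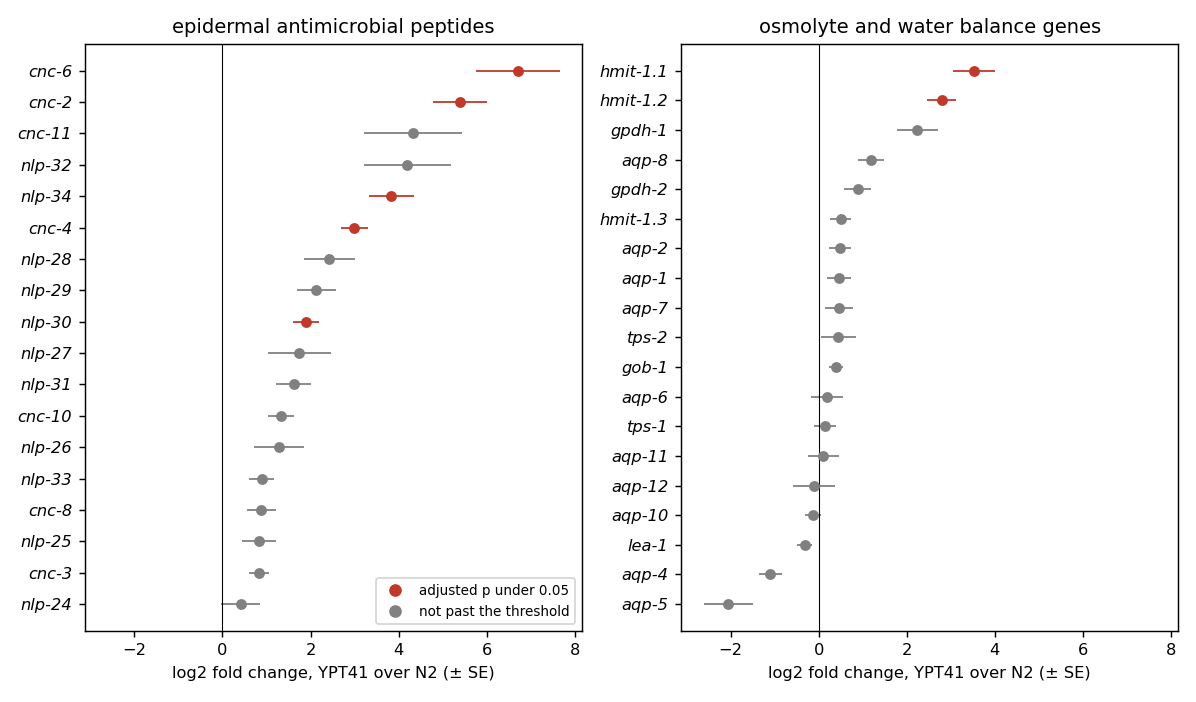
Log2 fold change of YPT41 over N2 with its standard error (horizontal) for the 18 tested antimicrobial peptide genes (left) and the 19 tested osmolyte and water balance genes (right). Red points passed the threshold: 5 on the left, where every point lies above 0, and hmit-1.1 and hmit-1.2 on the right, where 5 genes lie below 0.

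The largest rise was that of suex-1 on chromosome II, which had 173, 47 and 855 counts in YPT41 replicates 2, 3 and 4 and no count in any of the 3 N2 libraries. Set against a floor of 3 counts over the N2 group, it was at least 475-fold higher in YPT41, and at least 178-fold higher without YPT41 replicate 4 (edgeR adjusted p = 0.0227). Its direct neighbour F12A10.9 rose as well. The call for suex-1 was lost without any 1 of the N2 libraries. srlf-34, also on II, stood at 67.2, 124 and 280.3 CPM in YPT41, against 2.34, 1.72 and 1.66 CPM in N2 (log2 fold change 6.38 ± 0.61, SE, edgeR adjusted p = 0.00177). Its lowest YPT41 library was far above the highest N2 library.

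Other genes with large rises were low in N2. fip-1, which belongs to a family of fungus-induced proteins, had 1.41, 1.13 and 2.37 CPM in YPT41 and 0.0756, 0.115 and 0.0326 CPM in N2. sqst-3, related to the autophagy receptor gene family of sequestosomes, had 0.763, 2.26 and 2.13 CPM in YPT41 and at most 0.0977 CPM in N2. tag-293 stood at 84.1, 24.7 and 248 CPM in YPT41, against 3.40, 9.70 and 1.92 CPM in N2. None of these 3 overlapped between the strains, which the rule for naming them required. In edgeR's test their adjusted p were 0.00988, 0.0284 and 0.0366. The calls of fip-1, sqst-3 and tag-293 held in 4, 1 and 3 of the 6 fits without 1 library. fip-1 and sqst-3 passed the filter on low counts through YPT41, so their rises were partly set by the filter.

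Of 57 tested glycosyltransferase genes 3 rose (5.26%, against 0.606% of all genes away from the left end). The median over the list was -0.44. Without overlap, 19 members lay below N2 and 6 above, beside 9.8% and 10.2% of all genes away from the left end. gtnt-25 stood at 6.05, 9.04 and 14.1 CPM in YPT41, against 0.378, 0.459 and 1.04 CPM in N2. bgnt-1.2, 3 genes away from it on chromosome V, stood at 1.64, 2.83 and 3.83 CPM in YPT41, against 0.0756, 0.115 and 0.195 CPM in N2. gtnt-41 stood at 4.64, 6.89 and 6.39 CPM in YPT41, against 1.13, 2.01 and 1.82 CPM in N2. None of the 3 overlapped, and their log2 rises were 3.87, 4.24 and 1.83 (edgeR adjusted p = 0.0155, 0.00804 and 0.0439). gtnt-25 and bgnt-1.2 passed the filter on low counts through YPT41, where they are high, so their rises were partly set by the filter. The calls of gtnt-25, bgnt-1.2 and gtnt-41 held in 4, 4 and 1 of the 6 fits without 1 library. The list therefore held rises against a median below 0.

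C-type lectins, secreted or membrane proteins many of which respond to pathogens, were called in both directions. Of 99 tested, clec-82 and clec-7 rose and clec-76 and clec-229 fell, and the median was 0.10. That is 2.02% in each direction, against 0.606% (higher) and 0.28% (lower) of all genes away from the left end. clec-82 stood at 40.7, 76.9 and 100.0 CPM in YPT41, against 6.95, 8.26 and 10.3 CPM in N2 (log2 fold change 3.09 ± 0.50, SE, edgeR adjusted p = 0.0247). clec-7 stood at 10.0, 18.4 and 13.6 CPM in YPT41 and 4.23, 3.90 and 3.84 CPM in N2 (edgeR adjusted p = 0.0155). clec-76 fell to 1.94, 3.50 and 1.70 CPM in YPT41, against 16.7, 9.87 and 7.91 CPM in N2 (edgeR adjusted p = 0.0227). The strains did not overlap for any of these, as for all genes called away from the left end. clec-229 fell to 0.0587, 0.339 and 0.0608 CPM in YPT41, against 1.13, 1.55 and 1.99 CPM in N2. It passed the filter on low counts through N2, with at most 0.455 CPM in 15eh1, so its fall was partly set by the filter. None of 10 tested lysozymes was called, and of 25 saposin-like, ABF and thaumatin genes 1 rose, abf-6 (4.0%, against 0.606%).

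asns-2 and dap-1 had the highest YPT41 levels among the higher genes, and both were named after their values were seen. asns-2, which encodes an asparagine synthetase, stood at 516, 639 and 521 CPM in YPT41, against 177, 192 and 87.4 CPM in N2 (edgeR adjusted p = 0.0207). dap-1, a homolog of the mammalian death-associated protein gene, stood at 655, 1271 and 1440.0 CPM in YPT41, against 287, 389 and 281 CPM in N2 (edgeR adjusted p = 0.0248). Among metabolic enzymes, of 52 tested cytochrome P450 genes, which encode oxidases of drugs and lipids, 2 rose (3.85%, against 0.606% of all genes away from the left end). cyp-34A2 stood at 3.35, 4.97 and 8.27 CPM in YPT41 and 0.756, 1.38 and 0.814 CPM in N2 (edgeR adjusted p = 0.0258), and cyp-32A1 had a log2 fold change of 1.56 (edgeR adjusted p = 0.0375). These 2 calls held in 3 and 1 of the 6 fits without 1 library. Of 60 tested UDP-glucuronosyltransferase genes, whose products conjugate small molecules, 3 fell (5.0%, against 0.28% of all genes away from the left end) and the median was -0.30.

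These were ugt-44, ugt-62 and ugt-63. ugt-44 fell to 9.81, 8.02 and 3.35 CPM in YPT41, against 29.02, 32.6 and 68.7 CPM in N2. ugt-62 fell to 22.3, 10.96 and 18.7 CPM in YPT41, against 45.0, 52.7 and 42.2 CPM in N2. ugt-63 fell to 0.646, 1.13 and 0.486 CPM in YPT41, against 4.46, 3.61 and 5.47 CPM in N2. For these 3 the strains did not overlap, as for all genes called away from the left end, and edgeR's adjusted p were 0.0452, 0.0452 and 0.0322. Their calls held in 1, 1 and 2 of the 6 fits without 1 library.

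Of 11 tested genes on a list of named cuticle collagens, 1 fell, sqt-1 (9.09%, against 0.28% of all genes away from the left end). The list leaves out the annular furrow and col class collagens and sqt-2, a collagen gene at the left end of II. sqt-2 was all but absent from YPT41, with 6, 0 and 3 counts, against 1566, 1764 and 4768 in N2. Near it, best-3 and gmeb-1 held 1 and 3 counts in the 3 YPT41 libraries together, against 674 and 2357 in N2. sqt-1, in which mutations change body shape, fell to 179, 186 and 142 CPM in YPT41, against 526, 642 and 775 CPM in N2. The YPT41 mean was 0.261 of the N2 mean, without overlap, and the log2 fold change was -1.94 ± 0.24 (SE, edgeR adjusted p = 0.00804). fbn-1, a fibrillin-like gene of the apical matrix that is remodelled at molting, fell to 103, 55.9 and 48.5 CPM in YPT41, against 190.5, 172 and 265 CPM in N2 (edgeR adjusted p = 0.0402). It was the only one called of 30 tested molting and apical matrix genes (3.33%, against 0.28% of all genes away from the left end), and it passed in 1 of the 6 fits without 1 library. sqt-1 and fbn-1 lie outside the naming rule and were chosen after their values were seen.

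The molting and apical matrix list had a median of -0.57 in log2 fold change. Of its 30 genes, 2 lie at the left end of II, 27 were below 0, and 16 were below N2 without overlap. Among all genes away from the left end, 9.8% were below N2 without overlap. In YPT41 replicates 2, 3 and 4 the median difference from the N2 mean was -0.48, -0.42 and -0.92. It lay between -0.62 and -0.27 in the 15eh1 libraries, which were thus also below N2. None of the 6 annular furrow collagens (dpy-2, dpy-3, dpy-7, dpy-8, dpy-9 and dpy-10) was called, and their median was -0.26. wrt-8, a hedgehog-related gene, fell to 1.41, 1.81 and 1.16 CPM in YPT41, against 7.63, 7.80 and 12.96 CPM in N2 (edgeR adjusted p = 0.0227). It was the only one called of 49 tested hedgehog-related genes (2.04%, against 0.28% of all genes away from the left end). wrt-8 passed in 1 of the 6 fits without 1 library. Astacin proteases, a family with members that cut cuticle, gave 1 call each way among 27. That is 3.7% each way, against 0.606% (higher) and 0.28% (lower) of all genes away from the left end. nas-9 rose, with 47.3, 55.3 and 101 CPM in YPT41 and 16.1, 21.2 and 17.8 CPM in N2. nas-27, on II not far beyond its left end, fell, with at most 0.226 CPM in YPT41 and at least 1.21 CPM in N2. It passed the filter on low counts through N2, where it is high, so its fall was partly set by the filter. nas-27 was called in 1 of the 6 fits without 1 library.

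dod-24 and pud-3 were also among the largest falls. dod-24, a gene downstream of the DAF-16 transcription factor that also answers pathogens, fell to 11.5, 15.7 and 6.08 CPM in YPT41, against 85.5, 91.8 and 129 CPM in N2 (log2 fold change -3.22 ± 0.36, SE, edgeR adjusted p = 0.00474). It was the only one called of 17 intestinal pathogen response genes (5.88%, against 0.28% of all genes away from the left end), whose median was -0.37. pud-3, a gene described by its higher protein level in daf-2 mutants, fell to 2.17, 6.89 and 1.16 CPM in YPT41, against 65.5, 38.4 and 143 CPM in N2 (edgeR adjusted p = 0.0431). Both had no overlap with N2, which the rule for naming them required. The call of dod-24 held in all 6 fits without 1 library, and that of pud-3 in 1.

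Of 28 tested oac genes, which encode O-acyltransferase homologs, 3 fell (10.7%, against 0.28% of all genes away from the left end), and the median of the class was -1.12. oac-34 fell to 0.235, 1.13 and 0.0608 CPM in YPT41, against 10.4, 5.85 and 9.74 CPM in N2 (edgeR adjusted p = 0.0341). oac-30, on II, fell to 1.59, 1.47 and 1.34 CPM in YPT41, against 8.77, 9.64 and 12.2 CPM in N2 (edgeR adjusted p = 0.0392), and oac-59 had a log2 fold change of -1.83. The oac class was chosen after its values were seen. btb-4 and math-18, with BTB and MATH domains that occur in adaptors of ubiquitin ligases, fell with log2 fold changes of -3.04 and -3.09 (edgeR adjusted p = 0.0366 and 0.0343). The calls of oac-30, oac-34, btb-4 and math-18 were lost without any 1 of the 3 N2 libraries.

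srw-85, a chemoreceptor gene, had the lowest adjusted p of all genes away from the left end. It fell to 1.47, 1.58 and 0.669 CPM in YPT41, against 21.2, 22.4 and 18.5 CPM in N2 (log2 fold change -4.08 ± 0.34, SE, edgeR adjusted p = 0.000706). In 15eh1 it had 0.838, 1.06 and 1.19 CPM. herc-1, which encodes a HERC-type ubiquitin ligase homolog, fell to 19.9, 16.8 and 18.6 CPM in YPT41, against 51.99, 48.4 and 59.6 CPM in N2, with 13.5, 17.0 and 19.5 CPM in 15eh1 (edgeR adjusted p = 0.00804 for YPT41 against N2). These 2 genes were the only calls of 15eh1 against N2 (0.015% of genes tested, with 613 at an unadjusted p under 0.05), so both fusion strains lay below N2. The family member srw-86 went the other way, with 14.1, 19.8 and 19.4 CPM in YPT41 and 4.99, 7.00 and 7.20 CPM in N2 (edgeR adjusted p = 0.0412). Its call held in 1 of the 6 fits without 1 library.

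Several lists leaned one way with few calls or none. All 30 tested FMRFamide-like neuropeptide genes (flp), which encode peptide transmitters of neurons, had a positive log2 fold change, with a median of 0.83 and no call. The member with the lowest adjusted p, flp-5, stood at 90.0, 111 and 151 CPM in YPT41 and 61.8, 58.6 and 54.2 CPM in N2 (edgeR adjusted p = 0.0564). Of 61 other neuropeptide-like genes, 58 were above 0 with a median of 0.87. Among them 1 rose, nlp-59 (1.64%, against 0.606% of all genes away from the left end). The median of these 61 was 0.44 for 15eh1 over N2 and 0.40 for YPT41 over 15eh1. The flp median by library was 0.16, 0.92 and 1.29 in YPT41 replicates 2, 3 and 4, and 0.23 to 0.47 in 15eh1. N2 libraries lay between -0.31 and 0.22, so YPT41 replicate 2 lay within the N2 range and below the 15eh1 libraries. The 32 synaptic vesicle and neurotransmitter genes did not lean, with a median of 0.00.

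Insulin-like peptide genes had a median of 0.97 over 19. Among them 1 rose, ins-26 (5.26%, against 0.606% of all genes away from the left end). ins-26 stood at 17.7, 43.4 and 19.5 CPM in YPT41 and 9.07, 6.31 and 6.71 CPM in N2 (edgeR adjusted p = 0.0343). Fungus-induced protein genes had a median of 1.16 over 18, with 1 call, fip-1 (5.56%, against 0.606%). fip-1 passed the filter on low counts through YPT41, where it is high, so its rise was partly set by the filter. Transthyretin-related genes had a median of 0.76 over 45, with rises of ttr-32 and ttr-59 (4.44%, against 0.606% of all genes away from the left end). ttr-59 stood at 19.8, 25.4 and 43.2 CPM in YPT41 and 8.01, 10.4 and 8.37 CPM in N2 (edgeR adjusted p = 0.0284), and ttr-32 at 40.2, 44.3 and 38.3 CPM in YPT41 and 14.7, 21.5 and 10.5 CPM in N2 (edgeR adjusted p = 0.0371).

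All 28 tested histone genes were above 0, with a median of 0.87, and none was called. Without overlap, 14 lay above N2, beside 10.2% of all genes away from the left end. Their medians by library were 0.64, 0.60 and 1.27 in YPT41 and 0.09 to 0.22 in 15eh1. his-32, with the lowest adjusted p, stood at 11.7, 10.6 and 9.43 CPM in YPT41 and 2.27, 3.56 and 4.56 CPM in N2 (edgeR adjusted p = 0.0564). Histone gene copies are near-identical, so their counts may be split. The 74 ribosomal protein genes were all above 0 with a median of 0.28, although YPT41 replicate 3 lay at -0.10 and YPT41 replicate 4 at 0.67. Most of this lean was shared with 15eh1: the median was 0.20 for 15eh1 over N2 and 0.07 for YPT41 over 15eh1.

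Other lists differed between libraries of 1 strain, in N2 as well as in YPT41. The 127 tested col class collagens, which build the cuticle of each larval stage, had a median of 0.09. By library they lay at -0.54, -0.54 and 1.25 in YPT41 replicates 2, 3 and 4, and at -0.71, 0.29 and 0.54 in N2 replicates 2, 3 and 4. None was called. Hedgehog-related genes lay at -0.54, -0.29 and 0.34 in YPT41 and at -0.27, -0.05 and 0.37 in N2. The 13 SCP/TAPS secreted protein genes lay at -0.54, 0.37 and 1.89 in YPT41 and at -0.35, 0.16 and 0.25 in N2. Away from the left end of II, counting genes at least 4-fold above all 6 15eh1 and N2 libraries (after adding 1 CPM) gave 14, 14 and 51 in YPT41 replicates 2, 3 and 4. Genes at least 4-fold below numbered 5, 38 and 99. Among the 80 higher genes YPT41 replicate 4 was the highest YPT41 library for 50, YPT41 replicate 3 for 27 and YPT41 replicate 2 for 3. What part these library differences have in the calls was not tested.

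**Figure D5:**
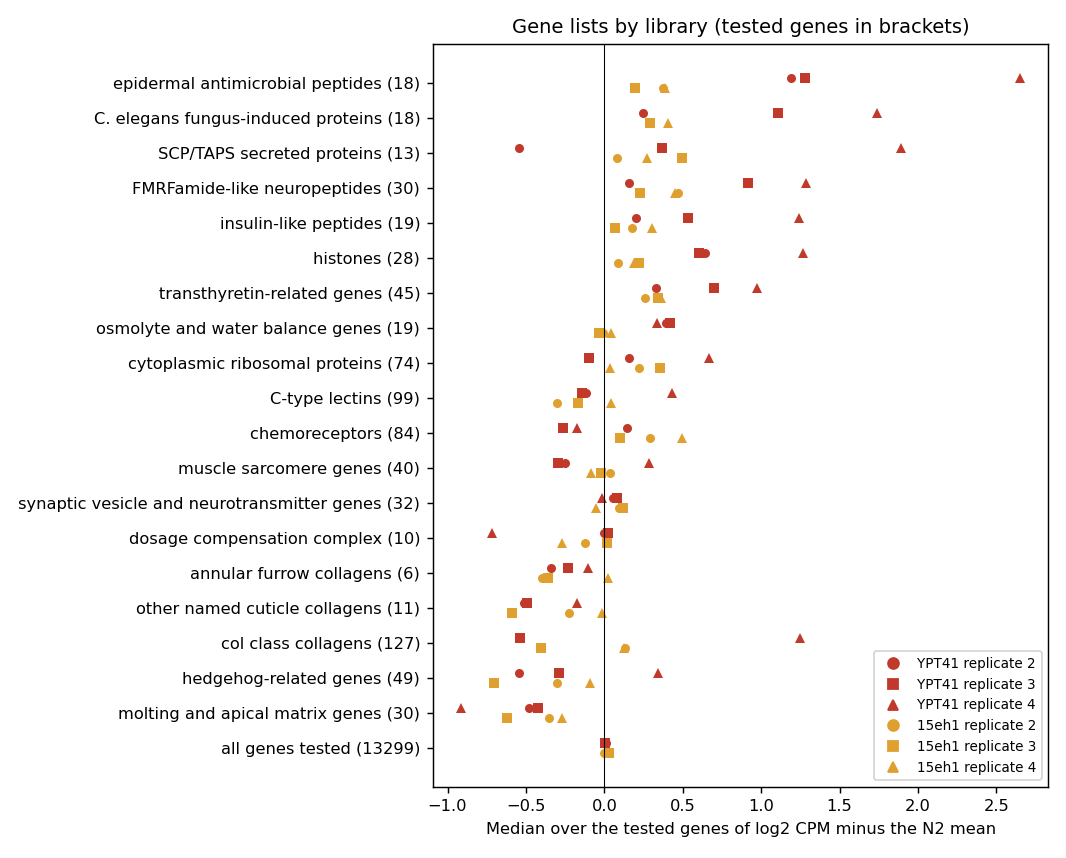
Median over the tested genes of each list of log2 CPM minus the N2 mean (horizontal), for each YPT41 library (red) and 15eh1 library (yellow), with the number of tested genes in brackets. The antimicrobial peptide list lies at 1.19, 1.28 and 2.65 in YPT41 replicates 2, 3 and 4, whereas the col class collagens lie at -0.54, -0.54 and 1.25.

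Marker lists of cell types were measured to set these differences beside the make-up of the larvae. No gene was called among 41 germline, 6 sperm, 6 vitellogenin, 8 male, 40 muscle, 32 synaptic, 28 intestinal, 22 epidermal and seam, or 23 pharyngeal markers. With 0.886% called among all genes away from the left end, lists this short would hold few calls or none. Without overlap, 11 of the 40 muscle markers lay below N2 and 2 above. Of the 22 epidermal and seam markers 8 lay below and none above. Among all genes away from the left end, 9.8% lay below and 10.2% above. Epidermal and seam markers, the tissue of the antimicrobial peptides, had a median of -0.21, and -0.26, -0.20 and -0.76 in YPT41 replicates 2, 3 and 4. Their summed level was 4255 to 5298 CPM in YPT41 and 6004 to 6658 CPM in N2. Intestinal markers lay at -0.13, 0.07 and 0.60 and pharyngeal markers at -0.45, -0.06 and 0.95 in the same YPT41 libraries. Summed germline markers spanned 668 to 918 CPM in YPT41 and 723 to 930 CPM in N2. Vitellogenins, made by the adult intestine, spanned 2.88 to 245 CPM in YPT41 and 5.21 to 322 CPM in N2, and YPT41 replicate 3, N2 replicate 2 and N2 replicate 3 were the high ones. What part these markers have in the differences above was not tested.

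The 10 genes of the dosage compensation complex gave no call, with a median of -0.21 and a summed level of 772, 781 and 527 CPM in YPT41 and 783, 775 and 688 CPM in N2. YPT41 replicate 4 was the low library, at a median of -0.71, while YPT41 replicates 2 and 3 lay at 0.00 and 0.02. Of all 66 lists, 15 held a gene that rose, 12 one that fell and 42 none, with genes of the left end of II included.

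By chromosome, V held the most higher genes, 34 of 2689 tested (1.26%), against 0.606% over all genes away from the left end of II. cnc-2, cnc-4, nlp-30, nlp-34, hmit-1.1, hmit-1.2, gtnt-25, gtnt-41 and bgnt-1.2 are among them. X held 12 of 2027 (0.592%), IV 11 of 2110, III 8 of 2050 and I 7 of 2066. On II away from its left end 8 of 2045 genes were higher (0.391%) and 11 lower (0.538%), against 0.606% and 0.28% of all genes away from the left end. Counted from the left end, 6 of those 11 lay among tested genes 106 to 221, just outside the window of 100, and include sdz-24 at 106, nas-27 at 144, oac-30 at 147, btb-4 at 215 and math-18 at 221. sqt-1, at 1653 of 2145, lay far from it. The median log2 fold change was 0.10 on X, 0.06 on V and 0.00 on II away from the left end.

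Called genes away from the left end formed 11 pairs at most 5 genes apart, and in 10 of them both changed in the same direction. hmit-1.1 with hmit-1.2, suex-1 with F12A10.9, K01A6.8 with K01A6.7 and clec-229 with wrt-8 were adjacent. cnc-4 with cnc-2 and nlp-34 with nlp-30 had 1 gene between them. The exception was herc-1, which fell 2 genes away from Y48G8AL.13, which rose.

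YPT41 was also set against 15eh1, using the same YPT41 libraries, so the 2 comparisons are not independent. In this contrast 74 genes differed, 43 higher (0.323%) and 31 lower in YPT41, in all 0.556% of genes tested. Of the 80 genes higher than in N2, 29 were also called higher than in 15eh1, and in 68 the 15eh1 mean lay between the YPT41 and N2 means. These 80 were selected for a gap between YPT41 and N2, which by itself favours a 15eh1 mean inside it. No conclusion is drawn from the 68. Of the 37 lower genes, 11 were also called lower than in 15eh1. cnc-4 stood at 38.9, 41.1 and 64.7 CPM in YPT41, against 15.6, 10.5 and 8.05 CPM in 15eh1 (log2 fold change 2.09, edgeR adjusted p = 0.0142). hmit-1.1 had 10.3, 6.30 and 14.5 CPM in 15eh1, below each YPT41 library (log2 fold change of YPT41 over 15eh1 4.11, edgeR adjusted p = 0.00613). sqt-1 had 575, 440 and 695 CPM in 15eh1, above each YPT41 library (log2 fold change of YPT41 over 15eh1 -1.76, edgeR adjusted p = 0.0121).

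dod-24 likewise had 52.3, 88.4 and 62.96 CPM in 15eh1, above each YPT41 library (log2 fold change of YPT41 over 15eh1 -2.62, edgeR adjusted p = 0.0121). The genes nas-9, dap-1, asns-2, clec-229 and fbn-1, called against N2, did not pass against 15eh1 (edgeR adjusted p = 0.242, 0.101, 0.0717, 0.551 and 0.343). For nas-9 the 15eh1 libraries lay between the strains, at 35.1, 38.3 and 38.4 CPM.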

How the data were processed

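Raw read counts per gene were deposited by the authors as 1 table per library. Among the tools in the submitters' processing notes are TopHat2 2.1.1, HTSeq and SAMtools 1.6, whose roles are not stated. The sources used here give no genome build, annotation or strand setting for the counting.

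Summary lines were removed, among them the reads without a feature (2.56% to 4.25% per library). Of 20389 identifiers, 19879 matched the RefSeq table of WBcel235, from which only names, chromosomes and gene order were taken. Genes were tested with edgeR 4.0.16 (R 4.3.3, TMM, filterByExpr, quasi-likelihood, strain as the only term, 9 libraries) and p-values were adjusted by Benjamini-Hochberg at 0.05. Log2 CPM used a prior count of 2. The method was tested on simulated data. No 2 libraries of 1 strain repeated each other (lowest chi-square per gene 22.3). Counting error alone sets the floors.

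Members, 66 lists and tests were chosen with earlier results of these data known. Named genes are the 12 largest rises and 12 largest falls with non-overlapping libraries, a mean of at least 1 CPM and a name. To them come, for lists with 2 or more calls, the 3 genes of lowest adjusted p, and all tested antimicrobial peptide and osmolyte genes. Others were named after their values were seen. Alternatives were other library sets, filters and scaling, DESeq2 1.42.0 and limma 3.58.1 voom.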

Additional observations from a re-analysis of the deposited data

Results flagged for a closer look

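Replicate 1 of each strain, which entered only the alternative fit of all 12 libraries, gave a signal at the called genes. Away from the left end of II, 80 of the 80 genes called higher were also higher in YPT41 replicate 1 than in N2 replicate 1, beside 72.6% of all genes tested. Of the 37 genes called lower, 28 were also lower in replicate 1, beside 27.2% of all genes tested. These are 2 libraries without replication, which differ in their adult and germline transcripts, and no test was made of them.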

How the results depend on the processing

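Counts of called genes depended on the libraries and on the tool. For YPT41 against N2 (134 in all, 117 away from the left end), the counts were 30 and 25 with the 6 libraries alone, 29 and 23 with all 12 libraries and 749 and 715 with DESeq2. They were 49 and 43 with limma voom and strain weights, and 212 and 192 with no filter on low counts. Chosen after seeing the data, voom on the 6 libraries gave 28 and 24, and DESeq2 on them 373 and 347. For YPT41 against 15eh1 (74), they were 24 with all 12 libraries, 397 with DESeq2, 46 with voom and 117 with no filter. Without 1 library they ranged from 19 to 1286 and from 13 to 1258 for YPT41 against N2, and from 38 to 873 for YPT41 against 15eh1. The cause was not tested. RLE scaling, a filter at 1 CPM and windows of 50 or 200 tested genes kept each count within 1.5 times.

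Replicate numbers paired the libraries at most in part. Same-numbered YPT41 and N2 libraries correlated at 0.07, -0.07 and 0.39 (replicates 2, 3 and 4), and those of different number at -0.33 to 0.36. With the replicate block, the counts were 160, 144 and 69, and the biological coefficient of variation was 0.285, against 0.313 without it. Of the 3 YPT41 libraries, replicate 4 alone correlated best with its own number.

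None of the 37 called named genes changed direction under any setting, which their non-overlapping libraries largely fixed in advance. Many did not keep their call. Of the 37, 14 kept it with the 6 libraries alone, 18 with voom and strain weights, and 37 with DESeq2. Without N2 replicate 2, 3 or 4, 6, 8 or 12 kept it. With all 12 libraries 13 of 36 kept it. Of 924 list medians recomputed, 871 moved by less than 1 SD. Depth limits the genes near 3 counts, such as suex-1 and cnc-6 in N2.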
